A study of Mus musculus with 15 samples.

Results

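The NK-type lectin receptors are type II membrane proteins first known from natural killer (NK) cells, and several are also expressed by CD8+ T cells. A set of 7 genes was chosen by name: Klrg1, Klrk1, Klrd1, Klrc1, Klrc2, Klrb1c and Klre1. They are 7 of 55536 genes matched to the GENCODE M21 annotation, and all 7 are among the 17366 genes that passed the filter on low counts. Klrd1 encodes CD94, which pairs with NKG2A (Klrc1, inhibitory) or NKG2C (Klrc2, activating) to bind the non-classical MHC molecule Qa-1. Klrk1 encodes the activating receptor NKG2D, which signals in T cells through the adaptor DAP10 and binds stress-induced ligands. Klrg1 is an inhibitory receptor for cadherins and a marker of short-lived effector CD8+ T cells, Klrb1c encodes the NK cell antigen NK1.1, and Klre1 encodes a receptor subunit found on NK cells and some T cells.

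RNA was sequenced from 15 libraries of CD8+ T cells of OT-I mice, which carry a transgenic T cell receptor for the ovalbumin peptide SIINFEKL on a C57BL/6J background. Per the study's methods these mice also lack Rag1 or Rag2, in all 3 groups alike. The 5 Naive libraries were made from OT-I mice that received no transfer or treatment. The 5 Ag libraries were made from OT-I cells moved into wild-type C57BL/6J recipients, which were given SIINFEKL with a control rat IgG. The 5 Ag+Costim libraries were made from such cells in recipients given SIINFEKL with agonist antibodies to the costimulatory receptors OX40 (CD134) and 4-1BB (CD137). Transferred cells were taken from spleen and lymph nodes after 4 days per the labels (the methods give a slightly shorter time) and, per the methods, sorted as CD8+ CD45.1+ Vα2+ Vβ5+ cells; the recipients had B cells, NK cells and T cells of their own. The methods call each library a biological replicate.

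Total counts ran from 4865952 to 25280667 per library. They were 38.2% to 46.8% of the sequenced reads in Naive and 51.9% to 52.7% in Ag+Costim. In Ag 1, 3 and 4 they were 37.4%, 16.9% and 44.3%, and in Ag 2 and 5 they were 52.4% and 53.6%. Genes with a count numbered 30152 to 33853 in Naive, 20949 to 44408 in Ag and 23891 to 25410 in Ag+Costim. The part of these differences in the receptor levels was not tested. Lane 2 carried the Ag libraries together with Ag+Costim replicates 1 to 3, and lane 3 carried Naive together with replicates 4 and 5 of Ag+Costim, so no lane held both Ag and Naive. All 6 CD8+ T cell markers examined had counts in every library, with a summed level of 3525 to 7576 CPM (counts per 1000000 of the library total). Ag 3 had the fewest counts, and although recorded as male it held 70.3 CPM of the female-specific transcript Xist beside 22.6 CPM of the Y-linked Ddx3y, whereas Xist lay between 0 and 3.12 CPM in the other male libraries. The columns labelled Ag 1 and Naive 5 were identical in a deposited FPKM table that was not otherwise used, and they were not identical in the count table used here. Where a call given here was lost when Ag 1, Ag 3 or Naive 5 was left out, the value without that library stands beside it. For the companion and marker lists these fits were added after the data had been seen, and gained calls are given where they bear on a list described.

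All 7 genes lie on chromosome 6 in GRCm38, 6 of them within the natural killer gene complex and Klrg1 apart from it. Klrb1c (ENSMUSG00000030325.16) spans chr6:128778485-128789215 on the minus strand. Klre1 (ENSMUSG00000050241.8, chr6:129577905-129585827) and Klrd1 (ENSMUSG00000030165.16, chr6:129591782-129598775) follow on the plus strand. Klrk1 (ENSMUSG00000030149.15, chr6:129610323-129623864), Klrc2 (ENSMUSG00000052736.15, chr6:129647496-129660689) and Klrc1 (ENSMUSG00000030167.15, chr6:129666015-129678973) lie next to them on the minus strand. Klrg1 (ENSMUSG00000030114.8, chr6:122270596-122282882) is also on the minus strand.

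Klrc1 and Klrc2 are close copies, so how far a read can be placed between them bears on every value given for either. Exons 2 and 5, the coding exons that have the same rank and length in Klrc1-201 and Klrc2-205, the most abundant transcript of each gene, show how unevenly this likeness is spread. They are printed 5′ to 3′ on the coding strand from GENCODE M21, with the bases at which the 2 genes differ in capitals. In exon 2, 31 of 102 bases differed (69.6% identical), and the longest identical stretch was 11 bases.
Klrc1 exon 2, chr6:129678296-129678397: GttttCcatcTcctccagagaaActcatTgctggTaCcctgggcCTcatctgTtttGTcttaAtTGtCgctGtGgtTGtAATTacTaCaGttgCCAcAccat
Klrc2 exon 2, chr6:129659978-129660079: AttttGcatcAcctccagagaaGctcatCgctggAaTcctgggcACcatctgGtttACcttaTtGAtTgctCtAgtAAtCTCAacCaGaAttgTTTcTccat
In exon 5, 4 of 101 bases differed (96.0% identical). Counted from the 5′ end of the exon, with the base of Klrc1 first, the changes were A25G, C64G, T71A and G79A.
Klrc1 exon 5, chr6:129675300-129675400: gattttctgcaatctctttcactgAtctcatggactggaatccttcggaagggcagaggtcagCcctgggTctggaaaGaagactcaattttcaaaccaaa
Klrc2 exon 5, chr6:129656812-129656912: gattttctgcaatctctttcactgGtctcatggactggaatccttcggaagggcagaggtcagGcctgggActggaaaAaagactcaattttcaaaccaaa
Over the whole of Klrc1-201, 38.1% of its windows of 50 bases, the read length per the labels, also occur in Klrc2, and 22.8% of those of Klrc2-205 occur in Klrc1. The separate levels of the 2 genes are therefore uncertain. Klrb1c-201 shares 18.1% of its windows with Klrb1a, Klrb1b, Klrb1-ps1 or Gm44511, the last of which overlaps it on the same strand. No window was shared by any transcript of Klrg1, Klrk1 or Klrd1.

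Promoter windows were available for 5 of the 7 genes in the RefSeq table for GRCm38.p6, and 3 are shown, without the bases inside annotated exons, because Klrk1 and Klrc1 were high in Ag+Costim where Klrb1c was low. Each runs 5′ to 3′ on the gene's own minus strand toward the start site. The windows of Klrk1 and Klrc1 lie outside the GENCODE M21 spans of these genes. That of Klrb1c lies inside its GENCODE M21 span, which runs to base 128789215, so it is upstream of a RefSeq start only. Capitals mark matches, on either strand, to the Runx motif TGTGGT or the ETS motif CAGGAA.
Klrk1 upstream, chr6:129623865-129624114: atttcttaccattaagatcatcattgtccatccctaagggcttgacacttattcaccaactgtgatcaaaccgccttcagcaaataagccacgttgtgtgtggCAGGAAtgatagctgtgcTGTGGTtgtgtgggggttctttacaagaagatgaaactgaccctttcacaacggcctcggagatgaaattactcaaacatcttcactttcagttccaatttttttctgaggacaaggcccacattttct
Klrc1 upstream, chr6:129678974-129679223: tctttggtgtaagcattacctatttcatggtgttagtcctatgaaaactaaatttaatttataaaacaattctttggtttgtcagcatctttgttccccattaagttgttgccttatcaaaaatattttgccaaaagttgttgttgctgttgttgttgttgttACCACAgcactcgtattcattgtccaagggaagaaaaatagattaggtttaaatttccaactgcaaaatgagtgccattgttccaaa
Klrb1c upstream, chr6:128788642-128788886: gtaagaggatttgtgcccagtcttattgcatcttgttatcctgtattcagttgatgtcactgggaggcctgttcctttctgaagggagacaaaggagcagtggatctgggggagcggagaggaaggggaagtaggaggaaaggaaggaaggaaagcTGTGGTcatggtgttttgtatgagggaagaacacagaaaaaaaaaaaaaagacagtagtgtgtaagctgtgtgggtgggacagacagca
The Runx letters occurred in the 250 bases before at least 1 start of all 5 genes. In Klrc2 they stood at 2 places, 31 to 36 and 4 to 9 bases before its upstream start. Among all genes they occurred in 14% of 32851 windows and in 13.5% of 10092 tested genes with a window. The Runx matches of Klrc2 and Klre1 lay in annotated exons, which covered all 250 bases of both Klre1 windows. The ETS letters occurred in Klrk1 alone of the 5, against 25.7% of windows and 26.7% of tested genes. The T-box letters TCACAC occurred in 1 of the 2 Klre1 windows, within exon bases, against 12.3% of windows. The AP-1 letters TGANTCA occurred in none of the 5 genes, against 6.75% of windows and 5.33% of tested genes. A match describes these letters and not a bound site.

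The CD94 gene had the highest median of the set in every group by TPM, but by CPM in Naive only. On the TPM scale, which divides counts by transcript length and brings every library to a sum of 1000000 and so allows genes to be set side by side, the median of Klrd1 was 691 TPM in Naive (range 543 to 822), above Klrk1 at 104 (43.2 to 312) and Klrc1 at 43.1 (21.7 to 235). In Ag+Costim the medians were 476 TPM for Klrd1 (429 to 523), 424 for Klrk1 (358 to 461) and 318 for Klrc1 (280 to 357), so that the ranges of Klrd1 and Klrk1 overlapped there and did not in Naive. By CPM, which takes no account of length, the Klrd1 median in Ag+Costim was 203, below Klrk1 at 434 and Klrc1 at 391. In Ag it was 197 CPM, below 357 and 303 in the same order. Klrc2 stood at 17.6 TPM in Naive and 93.4 in Ag+Costim. Klre1 and Klrg1 had medians of 11.6 to 17.3 TPM in all 3 groups, and their ranges overlapped each other in each group. Klrb1c had the lowest median of the 7 in each group, 7.05 TPM in Naive against 4.42 in Ag and 0.548 in Ag+Costim.

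**Figure D1:**
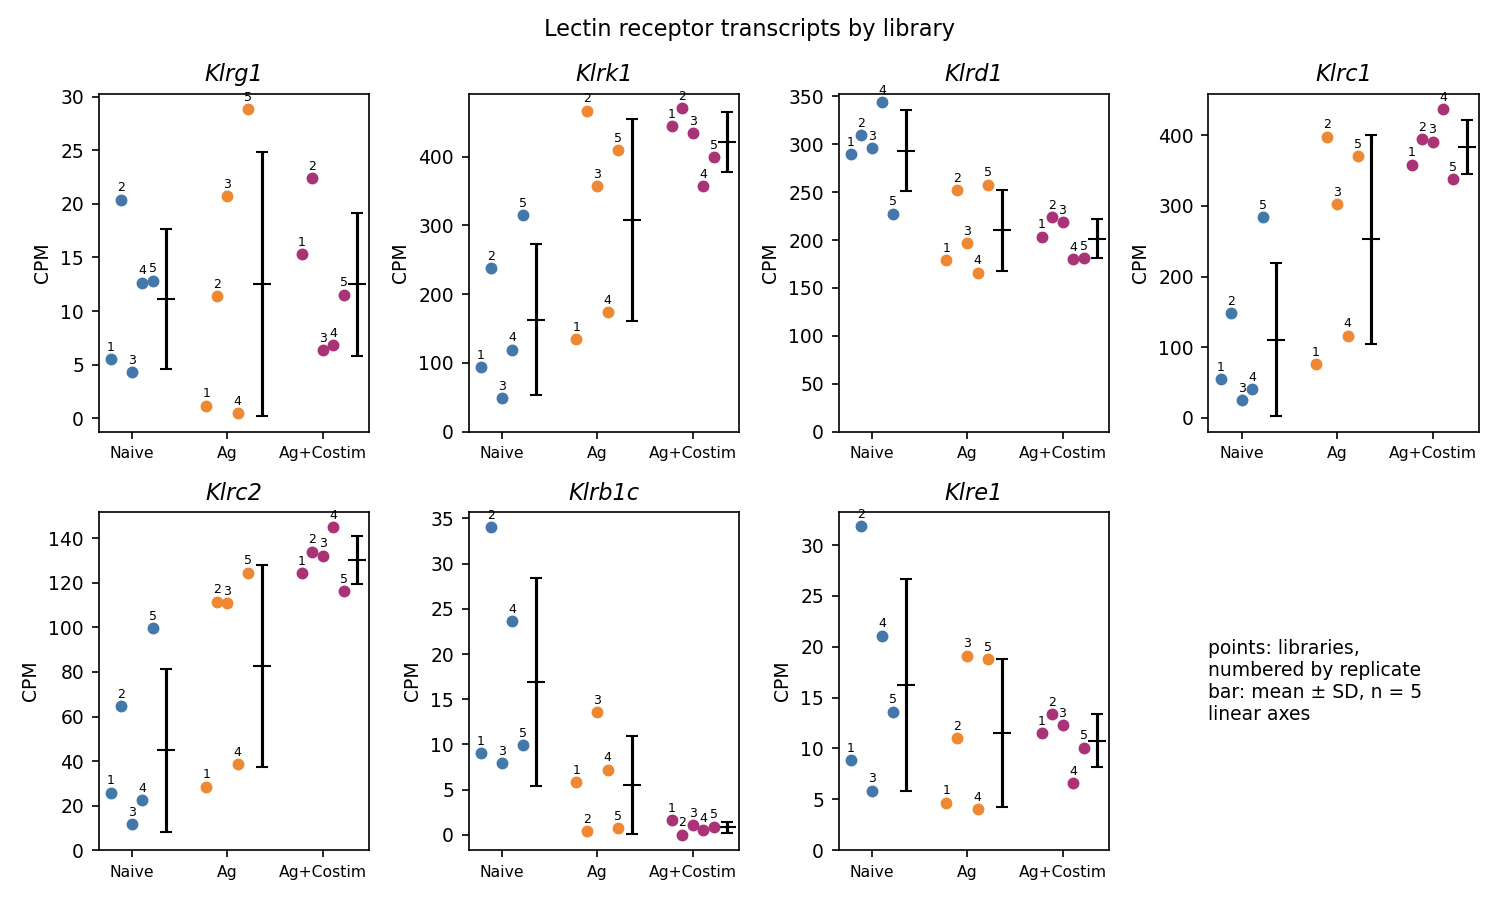
CPM (linear axes) of the 7 receptor genes in each library, with points numbered by replicate and bars for the mean ± SD of 5 libraries. Klrk1, Klrc1 and Klrc2 are higher in all 5 Ag+Costim libraries than in any Naive library, and Klrb1c is at most 1.58 CPM there.

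Klrd1 had counts in every library, with a mean of 293 ± 42.4 CPM in Naive against 210.3 ± 42.2 in Ag and 201 ± 20.5 in Ag+Costim (SD, n = 5). It measured 289.9, 309.7, 296, 344 and 228 CPM in Naive 1 to 5, 179, 251.8, 197, 166 and 258 CPM in Ag 1 to 5, and 203, 224, 218, 180.04 and 181 CPM in Ag+Costim 1 to 5. Every Ag+Costim library was below every Naive library, while Ag 2 and Ag 5 lay inside the Naive range. The log2 fold change by edgeR's quasi-likelihood test was -0.39 for Ag+Costim vs Naive (SE 0.17) with a false discovery rate over all genes (FDR) of 0.0715, which did not pass 0.05. It passed with DESeq2 (-0.42, adjusted p = 0.0439), without TMM scaling (-0.55, FDR 0.0115), in a fit of the 10 libraries alone (-0.45, FDR 0.00477) within lane 3 (-0.53, FDR 0.0434) and with limma's voom (-0.44, FDR 0.000449). It did not pass without the filter on low counts (-0.22, FDR 0.552), with the lane (-0.53, FDR 0.106) or the replicate number (-0.39, FDR 0.0843) as a term, or with any 1 Naive or Ag+Costim library left out (FDR 0.0547 to 0.295, with the smallest difference, -0.26, without Ag+Costim 4).

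Klrc1, the inhibitory partner, measured 54.8, 148, 25.3, 40.5 and 284 CPM in Naive 1 to 5, 76.1, 398, 303, 117 and 370.1 CPM in Ag 1 to 5, and 358, 394, 391, 437 and 337 CPM in Ag+Costim 1 to 5. Ag 1 and Ag 4 lay among the Naive libraries, Naive 5 lay near Ag 3, and the Ag+Costim libraries stayed together. Klrc2, the activating partner, measured 25.9, 64.7, 11.7, 22.3 and 99.6 CPM in Naive, 28.5, 112, 111, 38.5 and 125 CPM in Ag, and 124, 134, 132, 145 and 116 CPM in Ag+Costim, in order of replicate. The same libraries were high and low as for Klrc1. In bulk RNA, fewer cells that carry a transcript and less of it per cell cannot be told apart.

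Klrk1, which encodes NKG2D, measured 93.7, 238, 48.5, 119 and 315 CPM in Naive 1 to 5, 135, 467, 357, 173 and 410 CPM in Ag 1 to 5, and 444, 471, 434, 357 and 399 CPM in Ag+Costim 1 to 5. Naive 5 was again the highest Naive library, and Ag 1 and Ag 4 the lowest of the Ag group. Klrg1 measured 5.49, 20.4, 4.27, 12.6 and 12.8 CPM in Naive 1 to 5, 1.15, 11.4, 20.8, 0.459 and 28.9 CPM in Ag 1 to 5, and 15.3, 22.4, 6.35, 6.79 and 11.5 CPM in Ag+Costim 1 to 5. Its groups overlapped throughout, and Ag 1 and Ag 4 held 12 and 6 counts.

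Klrb1c, the NK1.1 gene, measured 9.06, 34.0, 7.91, 23.6 and 9.94 CPM in Naive 1 to 5, 5.82, 0.389, 13.6, 7.19 and 0.722 CPM in Ag 1 to 5, and 1.58, 0, 1.07, 0.485 and 0.918 CPM in Ag+Costim 1 to 5. It was high in Naive 2 and 4, at the edge of detection in Ag 2 and Ag 5, and had 0 counts in Ag+Costim 2, which allows a level of up to 0.233 CPM. Klre1 measured 8.85, 31.9, 5.85, 21.1 and 13.6 CPM in Naive 1 to 5, 4.68, 11.0, 19.1, 4.06 and 18.8 CPM in Ag 1 to 5, and 11.5, 13.4, 12.3, 6.61 and 10.1 CPM in Ag+Costim 1 to 5. Its 3 groups overlapped.

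Antigen alone was compared with the naive state to ask which receptors differed between them. The Ag cells had also been moved into wild-type recipients and the Naive cells had not. Antigen and transfer therefore cannot be told apart in any comparison with Naive. None of the 7 genes passed an FDR of 0.05 in Ag vs Naive with edgeR, beside 6.71% of all genes tested. At an unadjusted p under 0.05 the count was 1 (Klrk1), beside 28.7% of all genes. DESeq2 called 0 of the 7, beside 15.8% of all genes, and limma's voom with sample quality weights called 1 (Klrd1, lower), beside 23.3%. CPM overlapped between Ag and Naive for all 7, while 3.63% of all genes had no overlap. The fitted log2 fold changes were 1.31 for Klrc1 (SE 0.63, FDR 0.181), 1.04 for Klrk1 (SE 0.47, FDR 0.165) and 1.01 for Klrc2 (SE 0.56, FDR 0.233), and the mean of Klrc1 was 253 ± 148 CPM (SD, n = 5) in Ag against 111 ± 108 in Naive. Klrb1c differed by -1.60 (SE 0.82, FDR 0.205), with 5.54 ± 5.41 CPM in Ag against 16.9 ± 11.5. Klrg1 and Klre1 differed by 0.36 and -0.34 (FDR 0.790 and 0.664). The median of the 7 was 0.36, beside 0.08 over all genes.

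The lack of calls depended on 1 library, Naive 5. Without Naive 5, when edgeR called 3871 genes against 1165 with it, Klrc1, Klrk1 and Klrc2 passed with log2 fold changes of 2.09, 1.48 and 1.59 (FDR 0.0248, 0.0386 and 0.0482). Without both Naive 5 and Ag 1 they were 2.34, 1.68 and 1.82 (FDR 0.00634, 0.0103 and 0.0119). Without Ag 3 none of the 7 passed. Lane and group cannot be told apart in this comparison other than through the Ag+Costim libraries, and a fit with the lane as a term called 0 genes of any kind.

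Adding costimulation to antigen gave no call among the 7 genes at the level of edgeR's test, beside 0.0346% of all genes called in Ag+Costim vs Ag. At an unadjusted p under 0.05 the count was 1, beside 26.8% of all genes, and this was Klrb1c, with a log2 fold change of -2.60 (SE 0.89, FDR 0.101) and 0.811 ± 0.600 CPM in Ag+Costim against 5.54 ± 5.41 in Ag. DESeq2 called Klrb1c lower (-2.62, adjusted p = 0.0160), beside 20.7% of all genes called, and edgeR did so without Ag 2 (-2.73, FDR 0.0359) or without Ag 5 (-2.88, FDR 0.0360), the 2 Ag libraries in which it was nearly absent. In those fits 2679 of 18092 and 3573 of 18108 genes were called, against 6 of 17366 with all libraries. Without Ag 3, in which it was highest, the difference was -1.91 (FDR 0.193). Limma's voom with sample quality weights called all 7 genes, 6 higher and Klrb1c lower, but in that fit 64.5% of all genes were called. The fitted log2 fold changes of Klrc2, Klrc1 and Klrk1 were 0.65, 0.60 and 0.45 (FDR 0.454, 0.545 and 0.545), and those of Klrd1, Klrg1 and Klre1 lay between -0.10 and -0.03. CPM overlapped between Ag+Costim and Ag for all 7, while 7.04% of all genes had no overlap. The median of the 7 was -0.03, beside -0.10 over all genes.

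The spread of Klrc1 and Klrk1 was larger among the Ag libraries. Klrc1 had an SD of 148 CPM around 253 in Ag and of 38.2 around 384 in Ag+Costim, and Klrk1 an SD of 147 around 308 and of 43.9 around 421. In each case the Ag+Costim libraries fell beside the higher Ag libraries (Ag 2, 3 and 5) and above Ag 1 and Ag 4. Equality of the spreads was not tested.

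Costimulated effectors were then compared with naive cells, which brings together transfer, antigen and costimulation, and here 4 of the 7 genes were called. Klrk1 rose by 1.496 on the log2 scale (SE 0.48, FDR 0.0250), from 163 ± 110 to 421 ± 43.9 CPM (SD, n = 5). Klrc1 rose by 1.91 (SE 0.64, FDR 0.0288), from 111 ± 108 to 384 ± 38.2 CPM. Klrc2 rose by 1.66 (SE 0.56, FDR 0.0303), from 44.8 ± 36.6 to 130 ± 10.8 CPM. Klrb1c changed by -4.19 (SE 0.92, FDR 0.00661), from 16.9 ± 11.5 to 0.811 ± 0.600 CPM.

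The calls among the 7, with 3 higher and 1 lower, stand beside 44.7% of all genes called in Ag+Costim vs Naive (21% higher and 23.6% lower), so a call was common among all genes here. No Ag+Costim library lay within the Naive range of CPM for 5 of the 7, Klrd1 included, beside 45.6% of all genes. Klrg1 and Klre1 were not called (0.31, FDR 0.764, and -0.44, FDR 0.481), and the 95% intervals of their log2 fold changes ran from -1.29 to 1.91 and from -1.44 to 0.56. The median of the 7 was 0.31, beside -0.08 over all genes. The comparison shares its Ag+Costim and Naive libraries with the other 2, so that the 3 are not independent.

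**Figure D2:**
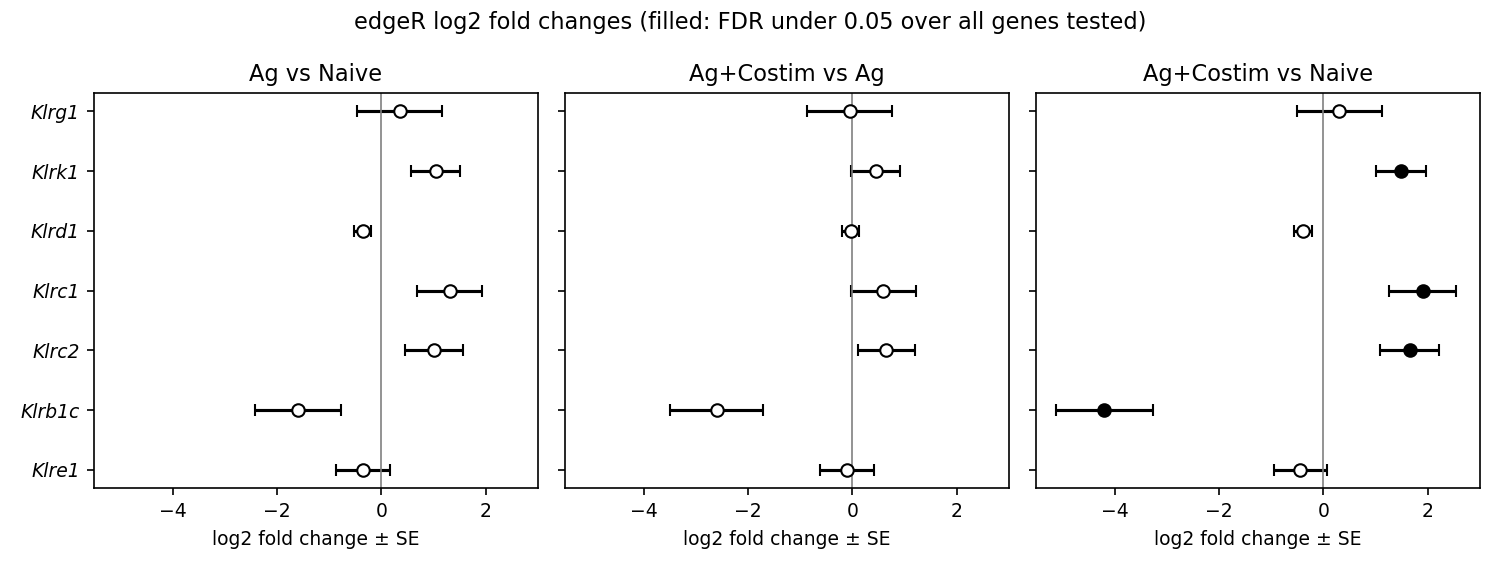
edgeR log2 fold change ± SE of each gene in the 3 comparisons, with filled points where the FDR over all 17366 genes tested was under 0.05. Klrk1, Klrc1, Klrc2 and Klrb1c are filled in Ag+Costim vs Naive, and no point is filled in the other comparisons.

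The decrease of Klrb1c kept its call in Ag+Costim vs Naive when each library was left out in turn, with log2 fold changes of -4.57 to -3.78, and within lane 3 (-4.39, FDR 0.0232). It lost the call with the lane as a term (-4.41, FDR 0.0632). The 3 increases were closer to the threshold. For Klrk1, Klrc1 and Klrc2 in turn, adjusted p with DESeq2 was 0.00486, 0.00472 and 0.00655. The FDR was 0.0146, 0.0190 and 0.0175 in the 10 libraries alone, and 0.00827, 0.00799 and 0.0103 with the replicate number as a term. It was 0.0225, 0.0517 and 0.0366 without the filter on low counts, and 0.113, 0.0930 and 0.0996 with the lane as a term. Within lane 3, which held 2 Ag+Costim and 5 Naive libraries, the increases were 1.38 for Klrk1, 1.97 for Klrc1 and 1.70 for Klrc2, with FDR 0.102, 0.0928 and 0.0902.

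Leaving out Naive 1 or Naive 4 ended the call of all 3 increased genes (FDR 0.0645 to 0.0762), and leaving out Naive 3 ended those of Klrc1 and Klrc2 (FDR 0.0582 and 0.0604). Leaving out Ag+Costim 2 did the same for these 2 (FDR 0.0503 and 0.0526), and leaving out Ag+Costim 3 or 5 ended that of Klrc2 (FDR 0.0507 and 0.0508). Without Naive 5 the log2 fold changes grew to 1.94 for Klrk1, 2.70 for Klrc1 and 2.25 for Klrc2 (FDR 0.00537, 0.00344 and 0.00526).

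**Figure D3:**
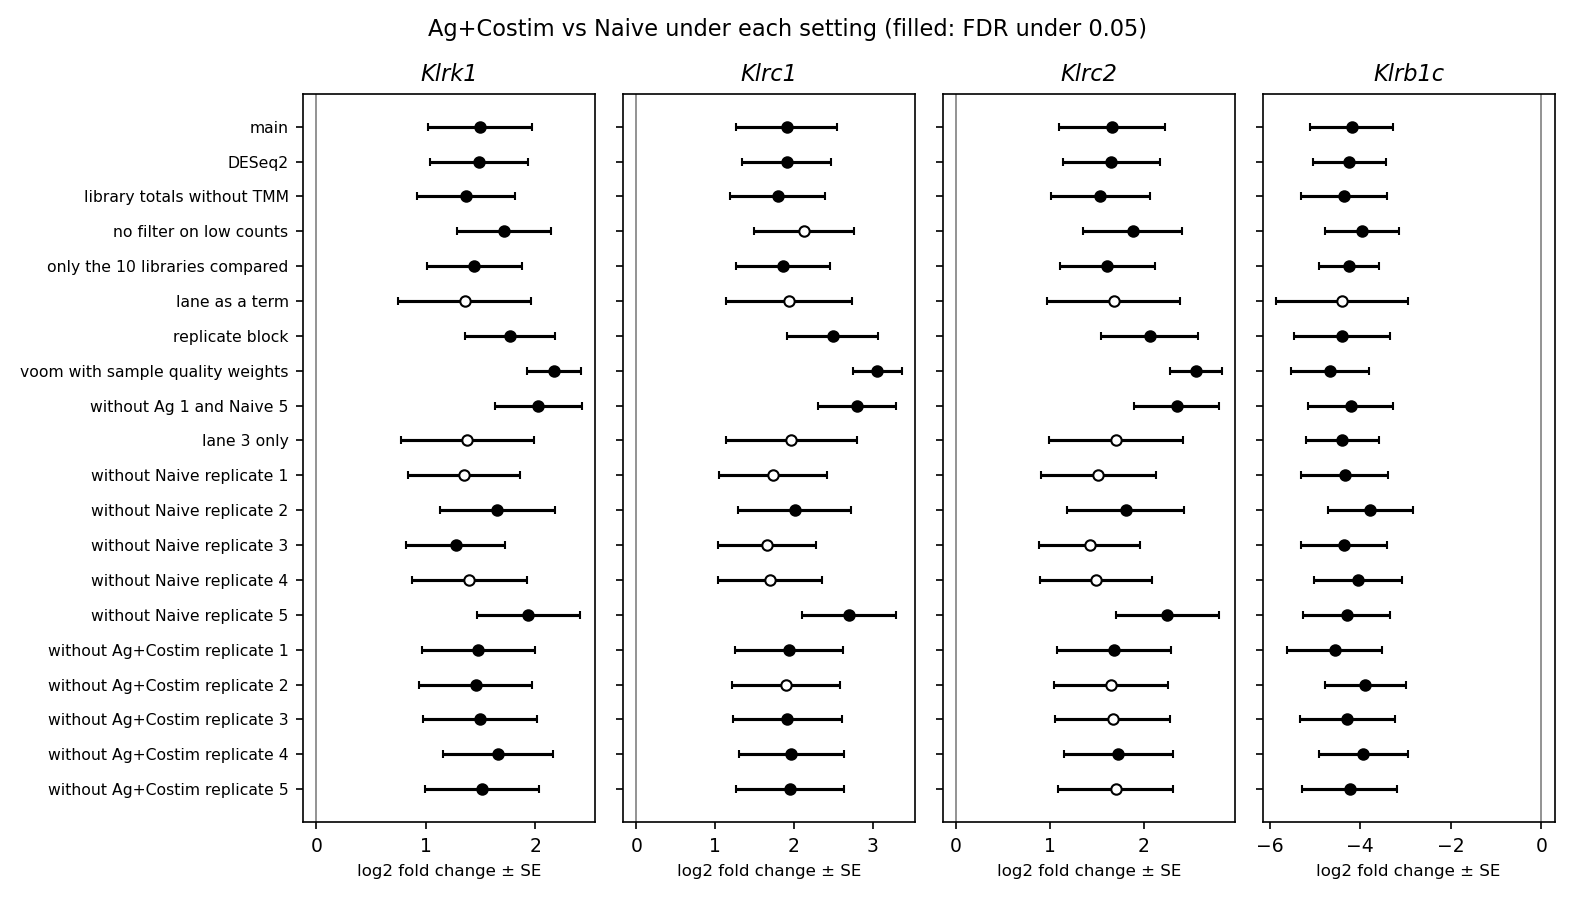
Log2 fold change ± SE of the 4 called genes in Ag+Costim vs Naive under each alternative, with filled points where the FDR was under 0.05. Each of the 4 genes keeps its sign under every setting plotted, from 1.27 to 2.17 for Klrk1 and from -4.67 to -3.78 for Klrb1c, while open points mark the settings that lost the call.

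The share of Klrc1 in the counts of both partner genes asks whether the counts of the 2 genes moved by the same amount. The counts of Klrc2 include a transcript annotated as retaining an intron, which held 11.7% of them in Naive and 4.47% in Ag+Costim. A share without that transcript was not computed. It was 67.9%, 69.6%, 68.3%, 64.4% and 74.0% in Naive 1 to 5, 72.7%, 78.1%, 73.2%, 75.2% and 74.8% in Ag 1 to 5, and 74.2%, 74.6%, 74.7%, 75.1% and 74.4% in Ag+Costim 1 to 5. Naive 1 to 4 lay below all treated libraries and Naive 5 lay among them. The 95% Wilson interval of a library, which covers counting error only, ran from 61.1% to 67.6% for Naive 4, with 824 counts, and from 74.2% to 76.0% for Ag+Costim 4, with 9608.

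The mean share was 68.9% ± 3.47 in Naive against 74.8% ± 2.11 in Ag and 74.6% ± 0.333 in Ag+Costim (SD, n = 5). By exact two-sided permutation tests it was 5.95 percentage points higher in Ag than in Naive (p = 0.0238, adjusted over the 3 comparisons 0.0357). It was 5.76 points higher in Ag+Costim than in Naive (exact permutation p = 0.00794, the smallest that 5 against 5 libraries allow, adjusted 0.0238). Ag+Costim and Ag differed by -0.191 points (exact permutation p = 0.881). Without Naive 5 the differences from Naive were 7.24 points for Ag and 7.05 for Ag+Costim. As a share of TPM, the differences from Naive were 7.61 points for Ag (exact permutation p = 0.0159) and 4.97 for Ag+Costim (exact permutation p = 0.00794). By the same measure Ag+Costim and Ag differed by -2.64 points (exact permutation p = 0.190). Within lane 3 the Ag+Costim difference from Naive was 5.89 points (exact permutation p = 0.0952, with 2 against 5 libraries), and both values rest on how the authors' counting split reads between near-identical sequences.

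**Figure D4:**
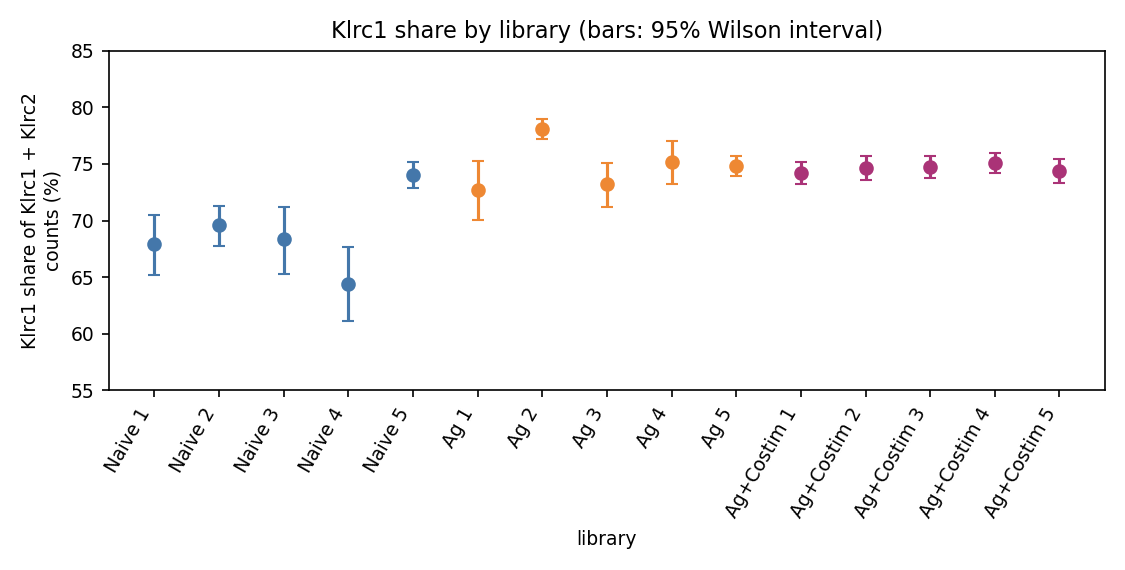
Klrc1 counts as a percent of Klrc1 and Klrc2 counts in each library, with 95% Wilson intervals as bars. Naive 1 to 4 lie between 64.4% and 69.6%, and Naive 5 lies at 74.0% among the Ag and Ag+Costim libraries.

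Klrb1c varied together with the markers of NK cells. The summed level of 8 NK cell markers (Ncr1, Itga2, Klra4, Klra8, Klra9, Klri2, Fcgr3 and Cma1) ranged from 12.8 to 60.7 CPM in Naive, while it was 5.71 to 44.8 in Ag and 6.85 to 13.2 in Ag+Costim. In Naive 2, Naive 4 and Ag 3, the libraries with the most Klrb1c, the sum was 60.7, 35.0 and 44.8 CPM. In Ag+Costim 2, where Klrb1c had no count, Ncr1, Klra4, Klra8, Klra9 and Cma1 were also at 0.

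Across the 15 libraries, which share their groups and lanes, Pearson's r between log2 CPM of Klrb1c and the log2 marker sum was 0.87, and 0.80 after each group's mean was taken away. The same r was -0.41 for Klrc1, -0.36 for Klrk1 and 0.29 for Klre1, and 0.040, 0.12 and 0.33 after group means were taken away. Of the 7 NK cell markers tested, 3 were lower in Ag+Costim than in Naive and none higher: Klra9 (-6.14, FDR 0.00237), Ncr1 (-3.67, FDR 0.0125) and Klra4 (-3.50, FDR 0.0289). These stand beside 23.6% of all genes called lower there. None was called in Ag vs Naive, but Klra9 was lower there without Naive 5 (-3.13, FDR 0.0221) or without Ag 3 (-3.47, FDR 0.0282). Ncr1 encodes the NK cell receptor NKp46. The part of NK cells in the level of Klrb1c was not tested.

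**Figure D5:**
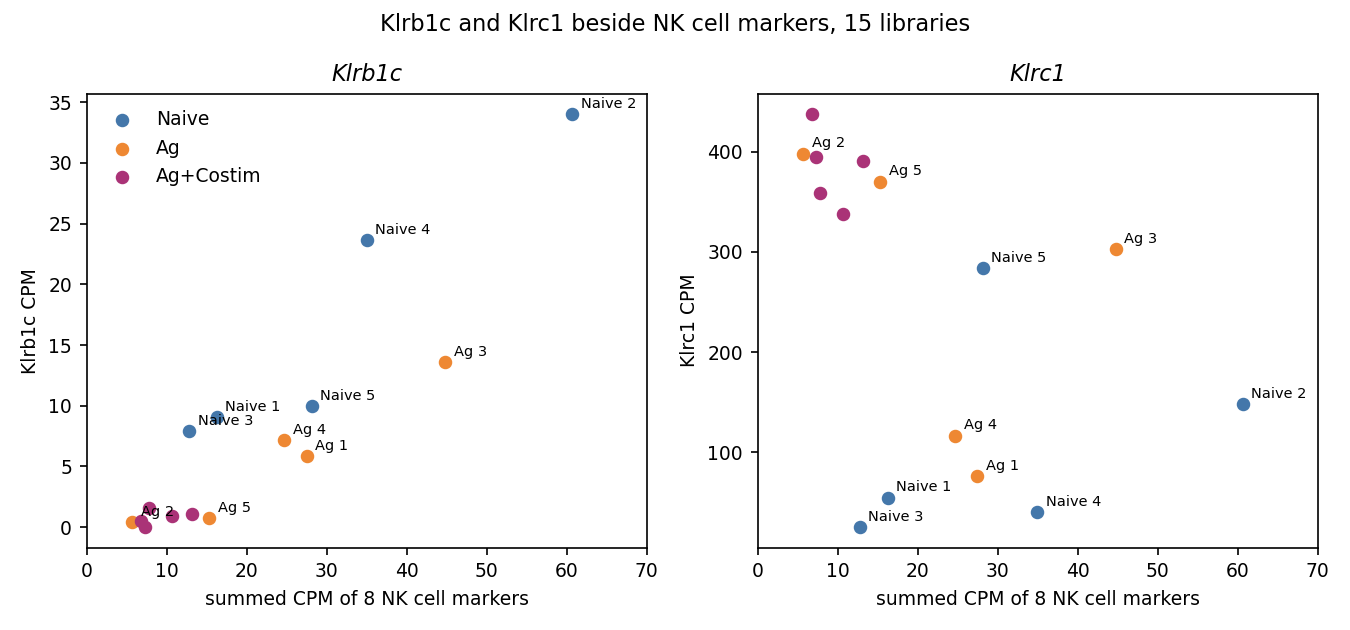
CPM of Klrb1c (left) and Klrc1 (right) against the summed CPM of 8 NK cell markers in each of the 15 libraries, colored by group. Klrb1c is highest where the marker sum is highest, in Naive 2 at 60.7 CPM of markers, whereas Klrc1 is highest at sums under 16 CPM.

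Markers of other cell types also differed among libraries. For innate-like T cells (Trdc, Zbtb16 and Sox13), 2 of 3 markers were lower in Ag+Costim than in Naive (Trdc, -1.44, FDR 0.00142, and Sox13, -3.47, FDR 0.0223), beside 23.6% of all genes. Trdc was also lower in Ag than in Naive (-1.39, FDR 0.00614), where 6.71% of all genes were called. The summed level of the 3 was 140 to 387 CPM in Naive against 86.7 to 138 in Ag and 74.4 to 110 in Ag+Costim. Most of it was Trdc, at 292 ± 92.9 CPM in Naive (SD, n = 5), beside 8.76 ± 6.05 for Sox13 and 0.733 ± 0.290 for Zbtb16. The OT-I donors lack Rag1 or Rag2 per the methods, and the sum does not count innate-like T cells. Of 6 B cell markers tested, 4 were higher in Ag than in Naive and 1 in Ag+Costim than in Naive (1 higher and 1 lower there without Naive 5). Called higher among all genes were 529 of 17366 in Ag vs Naive and 21% in Ag+Costim vs Naive. In the latter comparison without Naive 5, 4604 of 17981 genes were called higher and 4560 lower. The count of B cell markers called in Ag vs Naive was also 4 without Ag 1, without Ag 3 and without Naive 5. They summed to 1281 to 1613 CPM in Ag 1, 3 and 4, to 568 and 628 in Ag 2 and 5, to 578 to 1033 in Naive and to 510.04 to 786 in Ag+Costim. Ag 1 and Ag 4 were the Ag libraries lowest in Klrk1, Klrc1, Klrc2, Klrg1 and Klre1, whereas Ag 3 was not. Pax5, which defines B cells, had no count in Ag 2, Ag 5, Ag+Costim 4 and Naive 3. Of the 6 CD8+ T cell markers, 3 were lower in Ag+Costim than in Naive (Cd8b1, -0.72, Cd2, -0.55, and Cd8a, -0.54, FDR 0.00610 to 0.0320), and 4 without Naive 5. Beside them, 23.6% of all genes were called lower, and 4560 of 17981 without Naive 5. In Ag vs Naive 0 of the 6 CD8+ T cell markers were called. Without Naive 5, 2 were lower there, when 1601 of 17981 genes were called lower. The part of B cells and innate-like T cells in the levels of the receptors was not tested.

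The genes whose pattern was most like each receptor were taken from 11333 genes with a mean of at least 5 CPM, by Pearson's r of log2 CPM over the 15 libraries. Klrc1 was most like Rad54b, Ska3 and Tk1 (r 0.995, 0.994 and 0.994) and Klrc2 most like Rad54b, Klrc1 and Tk1 (r 0.995, 0.994 and 0.993). Tk1, the thymidine kinase of S phase, measured 5.74 to 56.8 CPM in Naive 1 to 4, 120.2 in Naive 5, 23.2 and 24.8 in Ag 1 and Ag 4, 122 to 192 in the other Ag libraries and 154 to 201 in Ag+Costim. Klrk1 was most like Soat2, Dapk2 and Klrc2 (r 0.987, 0.985 and 0.984).

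Klrg1 was most like Plac8, Gzma and Gzmm (r 0.935, 0.925 and 0.891), the latter pair being granzymes, and Klre1 was most like Klrg1 (r 0.88). Klrd1 was most like Cd2, an adhesion receptor of T cells (r 0.94), and Klrb1c most like Rgs2, Slpi and App (r 0.94, 0.92 and 0.92). Within the set, Klrk1, Klrc1 and Klrc2 had pairwise r of 0.983 to 0.994, and of 0.965 to 0.993 after group means were taken away. Klrd1, whose protein pairs with NKG2A and NKG2C, had an r of -0.22 with Klrc1 and -0.15 with Klrc2, whereas after group means were taken away the sign turned, to 0.34 and 0.38. These correlations share library, lane and depth and carry no test.

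Of 4 signalling adaptors tested, 2 were lower in Ag+Costim than in Naive and none higher, beside 44.7% of all genes called in that comparison. Hcst, which encodes the NKG2D adaptor DAP10, fell by 1.27 on the log2 scale (SE 0.24, FDR 0.00376), from 182 ± 49.4 to 67.5 ± 14.2 CPM, and every Ag+Costim library was below every Naive library. Cd247, the zeta chain, fell by 0.60 (SE 0.14, FDR 0.00785), from 398 ± 77.4 to 235 ± 19.0 CPM. Tyrobp, which encodes the adaptor DAP12, was low, at 14.97 ± 12.3 CPM in Naive and 7.74 ± 3.49 in Ag+Costim. None of the 4 was called in Ag vs Naive or in Ag+Costim vs Ag by edgeR, where Hcst differed by -0.48 (FDR 0.193) and -0.79 (FDR 0.0844). Without Naive 5, Cd247 was called lower in Ag vs Naive (-0.45, FDR 0.0209), when 3871 of 17981 genes were called.

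Among 3 phosphatases recruited by inhibitory receptors, Ptpn11 (SHP-2) was higher in Ag than in Naive (0.77, SE 0.20, FDR 0.0368) and in Ag+Costim than in Naive (0.53, SE 0.20, FDR 0.0431), and the call in Ag vs Naive was lost without Ag 1 (FDR 0.0510). The other two were not called in any comparison. Of 9 kinases and effectors of activating receptors, 2 were lower in Ag than in Naive and in Ag+Costim than in Naive, both of them parts of phosphoinositide 3-kinase. Pik3cd was lower by -0.96 and -0.94 (FDR 0.0170 and 0.00606), and Pik3r1 by -0.90 and -1.01 (FDR 0.0206 and 0.00466). The background was 6.71% of all genes called in Ag vs Naive and 44.7% in Ag+Costim vs Naive, so 2 of 9 was below the second of these. Without Naive 5, 3 further genes of this list were called higher in Ag+Costim than in Naive (Fyn, Grb2 and Plcg2, FDR 0.00290, 0.0250 and 0.0124), and Fyn and Plcg2 in Ag than in Naive (FDR 0.0168 and 0.0177). Of all 17981 genes in that fit, 4604 were called higher in Ag+Costim than in Naive and 2270 in Ag than in Naive. In Ag+Costim vs Ag none of the phosphatases or kinases was called.

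Of 13 ligand genes listed, 10 were in the table and 5 were tested. Beside 44.7% of all genes called in Ag+Costim vs Naive, 1 ligand gene was called, in that comparison alone. This was Cdh1, E-cadherin and a ligand of KLRG1, which was close to the limit of detection, with 1.43 ± 0.571 CPM in Naive and 0.0262 ± 0.0586 in Ag+Costim, where the median library was at 0 (FDR 0.0143). H2-T23, the Qa-1 gene, was not called between Ag and Naive (-0.09, FDR 0.787), with 364 ± 137 and 407 ± 94.1 CPM, nor between Ag+Costim and Naive (-0.51, FDR 0.0502). Without Naive 5 it was called in the latter comparison (-0.61, FDR 0.0158), in which 1 ligand gene was then higher and 3 were lower, beside 9164 of 17981 genes called.

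The other lectin receptors of the natural killer gene complex were mostly too low to test. Of 20 listed, 19 were in the table and 9 were tested, with 0 calls in Ag vs Naive and in Ag+Costim vs Ag by edgeR (1 in Ag vs Naive, Klra9, without Ag 3 or without Naive 5). Among all genes, 1226 of 17531 were called in Ag vs Naive without Ag 3 and 3871 of 17981 without Naive 5. In Ag+Costim vs Naive 2 were lower, Klra9 and Klra4, of the Ly49 family and both in the NK cell marker list above, and the median of the 9 was -2.06 beside -0.08 over all genes. The share of all genes called lower there was 23.6%. Klrc3, the neighbour and close copy of Klrc2, measured 2.72 ± 1.95 CPM in Naive against 3.66 ± 2.63 in Ag and 6.31 ± 1.40 in Ag+Costim, and was not called between Ag and Naive (0.57, FDR 0.632) between Ag+Costim and Ag (0.78, FDR 0.520) or between Ag+Costim and Naive (1.35, SE 0.77, FDR 0.155), although all 5 Ag+Costim libraries (4.98 to 8.43 CPM) lay above all Naive libraries (0.672 to 4.95 CPM).

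Cd69, an early activation antigen of the same fold encoded in the complex, was lower in both treated groups, with log2 fold changes of -1.63 in Ag vs Naive (SE 0.36, FDR 0.0188) and -2.18 in Ag+Costim vs Naive (SE 0.36, FDR 0.00235). Its mean was 189 ± 85.5 CPM in Naive against 58.0 ± 27.6 in Ag and 37.0 ± 8.69 in Ag+Costim. Of the 5 tested genes of the list of Cd69 and the Clec2 family, 3 were lower in Ag+Costim than in Naive, with Clec2i at -0.62 (FDR 0.0476) and Clec2h at 0 counts in all 5 Ag+Costim libraries against 1.54 ± 0.893 CPM in Naive. Among all genes, 23.6% were called lower in that comparison. In Ag vs Naive Cd69 was the 1 gene of this list called, beside 6.71% of all genes. There 2 of the list were lower without Naive 5, when 1601 of 17981 genes were called lower.

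Genes of effector differentiation were called in both directions. Of 10 tested, 3 were higher and 2 lower in Ag+Costim than in Naive, beside 21% and 23.6% of all genes. Tbx21, the T-bet transcription factor, rose by 1.68 (SE 0.48, FDR 0.0161), from 113 ± 84.3 to 333 ± 24.1 CPM, and Nkg7, a cytotoxic granule protein, rose by 0.64 (FDR 0.0195). Cx3cr1 and S1pr5, which with KLRG1 mark terminal effector cells, were lower by -1.54 and -2.85 (FDR 0.0195 and 0.0150). In Ag vs Naive, where 6.71% of all genes were called, Nkg7 was higher (0.72, FDR 0.0386) and Cx3cr1 lower (-1.64, FDR 0.0489). In Ag+Costim vs Ag none of the 10 was called by edgeR. The call of Cx3cr1 in Ag vs Naive was lost without Ag 1 (FDR 0.0536) or without Ag 3 (FDR 0.0693). Without Naive 5, the 10 genes gave 6 higher and 2 lower in Ag+Costim vs Naive, beside 9164 of 17981 genes called. In Ag vs Naive the 10 then gave 3 higher and 2 lower, beside 3871 of 17981 genes called.

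Of 6 memory and naive genes tested, 5 were lower in Ag+Costim than in Naive, among them the interleukin-7 receptor gene Il7r (-2.82, FDR 0.000954), the lymph node homing receptor gene Ccr7 (-1.77, FDR 0.00297) and the transcription factor gene Tcf7 (-1.35, FDR 0.00920), and none was higher. The background was 23.6% of all genes called lower there, and 6.71% called in either direction in Ag vs Naive. In Ag vs Naive 1 was called, Il7r (-1.996, FDR 0.00874), and Ccr7 was lower as well without Naive 5 or without Ag 1 (FDR 0.0136 and 0.0430), while Id3 was higher without Ag 3 (1.04, FDR 0.0341). Among all genes, 3871 of 17981 were called there without Naive 5, 1837 of 17628 without Ag 1 and 1226 of 17531 without Ag 3.

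The counts of each receptor gene were spread over annotated transcripts, as the authors' tool estimated them. Klrg1 has 1 annotated transcript. Klrc1-201 took 97.6% ± 0.463 of the Klrc1 counts of Naive libraries, 97.6% ± 0.297 for Ag and 97.4% ± 0.323 for Ag+Costim. Klrc2-205 held 74.5% ± 1.93, 84.6% ± 7.15 and 77.2% ± 3.37 of Klrc2 in the same order. Of the Klrd1 counts, 51.2% ± 2.81, 49.5% ± 11.9 and 53.8% ± 2.65 were on Klrd1-205, which is annotated as a target of nonsense-mediated decay and is 538 bases long, so that the TPM values of Klrd1 rest on that estimate.

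Transcripts annotated as retaining an intron held 19.7% ± 5.12 of Klrk1 counts in Naive against 12.8% ± 7.16 in Ag and 10.4% ± 2.21 in Ag+Costim. In Klrc2 they held 11.7% ± 3.48, 8.83% ± 4.75 and 4.47% ± 0.610, and the range in Ag+Costim, 3.43% to 4.98%, lay below that in Naive, 6.75% to 16.4%. In Klrd1 they held 7.64% ± 3.41, 3.09% ± 2.09 and 2.41% ± 0.619, with 1.31% to 2.75% in Ag+Costim below 3.15% to 12.7% in Naive. In Klre1 they held 5.22% ± 1.52, 8.07% ± 6.22 and 3.87% ± 2.61, and its groups overlapped. Naive 5 had the lowest retained share of the Naive libraries for all 4 genes, at 11.6% for Klrk1, 6.75% for Klrc2, 3.15% for Klrd1 and 3.38% for Klre1. These shares were not tested.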

How the data were processed

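The authors aligned single reads of SMART-Seq v4 libraries to mm10 with HISAT2 2.1.0 and estimated transcripts with StringTie 2.1.0 (versions per the submitters' processing notes). The deposited gene and transcript tables hold estimated counts per gene and per transcript as whole numbers, which the authors did not normalise. The deposited FPKM table, which the authors made with StringTie, was used only to compare its columns. Per the file headers, the deposited quality table gives a count of sequenced reads and the percent aligned.

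Of 81881 gene entries, 55536 matched GENCODE M21 by identifier; 26248 entries named by a number alone (0.0818% of counts) and 97 other entries without counts were left out. CPM is counts over the library total, and TPM was computed from transcript counts and annotated lengths. The main test of the counts was that of edgeR 4.0.16, run under R 4.3.3 (filterByExpr, TMM, robust quasi-likelihood, 1 coefficient per group, all 15 libraries, two-sided), called at a Benjamini-Hochberg FDR under 0.05 over 17366 genes. The common biological coefficient of variation was 0.431. P-values set the difference between groups against the spread between these libraries. The main fit shares that spread over all 15 libraries, so the Ag libraries also enter the test of Ag+Costim vs Naive. Alternatives were DESeq2 1.42.0, limma 3.58.1 voom with sample quality weights, no TMM, no filter, fewer libraries, the lane and the replicate number as terms. Counts of called genes in the lists without Ag 1, Ag 3 or Naive 5 were added after the data had been seen. The Klrc1 share was tested with exact permutation (scipy 1.17.1). The edgeR step was tested on simulated data. Motif letters were searched on both strands in the RefSeq table.

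The genes, lists and tests were chosen with earlier results of these data known. All 7 genes are described; of each list, up to 4 called genes of lowest FDR are named, or the 2 of highest mean CPM where none was called, except for 1 gene that is not reported here, and a few further genes were added after their values were seen (Tyrobp, Xist, Ddx3y, Fyn, Grb2, Plcg2, Id3, Klra9 and Cd247 in single settings, H2-T23 in Ag+Costim vs Naive and the levels of Tk1). Intervals and limits from 3 counts cover counting error only, since PCR copies were not marked by identifiers.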

Additional observations from a re-analysis of the deposited data

Results flagged for a closer look

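In each group of 5 libraries, the highest and the lowest value were compared with the nearest of the others for the 7 receptor genes, the Klrc1 share and 6 summed marker lists, 42 sets of 5 in all. Chance flags about 1 in 20 such sets, or 2.1 of 42, and 3 were found, all in markers of other cell types and none in a receptor gene. The summed level of 7 myeloid cell markers was 591 CPM in Naive 5, against 11.1 to 118 CPM in the other Naive libraries. The same sum was 133 CPM in Ag 3, against 46.6 to 58.9 CPM in the other Ag libraries. The summed level of 4 erythroid cell markers was 666 CPM in Ag 3, against 6.89 to 91.1 CPM in the other Ag libraries. Naive 5 is the Naive library with the highest Klrk1, Klrc1 and Klrc2, and of 6 myeloid cell markers tested in Ag+Costim vs Naive 1 was higher and 1 lower with it, 4 higher and 0 lower without it (edgeR, FDR under 0.05). All genes gave 44.7% called in that comparison with it and 9164 of 17981 without it. The part of myeloid cells in the levels of Klrk1, Klrc1 and Klrc2 was not tested.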

How the results depend on the processing

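Of 392 log2 fold changes of single genes under an alternative, 318 kept their direction and their side of the threshold, 20 lost a call, 19 gained one and 35 changed sign, the last all in genes that edgeR had not called with every library in. Genes called in Ag vs Naive moved from 1165 to 2622 with DESeq2, 208 without the filter on low counts, 6 with the 10 libraries alone, 0 with the lane as a term, 4039 with voom and 5436 without Ag 1 and Naive 5. Receptor genes called there moved from 0 to 1 with voom and to 3 without Ag 1 and Naive 5. In Ag+Costim vs Ag, calls moved from 6 to 5582, 3, 0, 0 and 11205 in the order of the first 5 alternatives, and to 0 without Ag 1 and Naive 5 and in lane 2 alone. Receptor genes called there moved from 0 to 1 with DESeq2 and 7 with voom. In Ag+Costim vs Naive, calls moved from 7755 to 4158 without the filter, 943 with the lane as a term and 13527 with voom, and receptor genes called moved from 4 to 0 with the lane as a term and 2 in lane 3 alone, where the share difference was 5.89 points (exact permutation p = 0.0952). Without TMM the median over all genes moved, on the log2 scale, from -0.08 to -0.23 in this comparison. The cause of these shifts was not tested.

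With 1 library left out, Ag vs Naive gave 255 to 3871 calls and 0 to 3 receptor genes, Ag+Costim vs Ag 0 to 3573 and 0 to 1, and Ag+Costim vs Naive 3892 to 9164 and 1 to 4. The lowest counts came without Naive 1 (255) and Naive 4 (3892), and the highest without Naive 5 and, in Ag+Costim vs Ag, Ag 5. The Klrc1 share difference between Ag+Costim and Ag ran from -0.709 to 0.632 points, positive only without Ag 2, that between Ag and Naive from 4.84 to 7.24, and that between Ag+Costim and Naive from 4.65 to 7.05.

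Signs changed for Klrg1, Klrd1 and Klre1 alone. In Ag vs Naive, Klrg1 was -0.30 with the lane as a term, -0.035 with the replicate block and -2.94 with voom, and ran from -0.32 to 0.68 with 1 library left out, Klre1 from -0.67 to 0.048. In Ag+Costim vs Ag, Klrg1, Klrd1 and Klre1 were 0.30, 0.23 and 0.25 without the filter, 0.18, 0.058 and 0.10 with the lane, 3.74, 0.35 and 1.31 with voom and 0.20, 0.073 and 0.11 in lane 2. They ran from -0.36 to 0.63, -0.12 to 0.18 and -0.32 to 0.23 with 1 library left out. In Ag+Costim vs Naive, Klrg1 was -0.12 with the lane, -0.10 in lane 3 and -0.0012 to 0.63 with 1 library left out.

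Replicate numbers are shared between groups, and so is recorded sex (replicates 1, 2 and 5 female, 3 and 4 male). Correlations of the deviations of same-numbered libraries ran from -0.324 to 0.470 for Naive and Ag (3 of 5 above 0.1, own number best in 2), from -0.156 to 0.122 for Naive and Ag+Costim (1 of 5, best in 1) and from -0.251 to 0.166 for Ag and Ag+Costim (1 of 5, best in 1). Not every pair was above 0.1, so the number was not used to pair libraries. With the replicate block, calls were 1660, 0 and 7833 in the 3 comparisons, receptor genes called 0, 0 and 4, and Klrg1 and Klre1 were 0.41 and 0.074 in Ag+Costim vs Ag. The share differences in the block, 5.95 and 5.76 points from Naive, had p = 0.0625 by an exact sign-flip permutation, the smallest that 5 pairs allow. At these depths a level of 3 counts is 0.119 to 0.617 CPM, which limits Klrb1c and Klrg1 most.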
